A study of Mus musculus with 6 samples.

Results

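Genes of meiotic synapsis and recombination were read in whole testes of Alkbh1 knockout (KO) and wild-type (WT) mice. The 31 genes on the list were chosen by name, and every probe set whose platform gene symbol, current or older, was that of a listed gene was taken. On this array each transcript is read by sets of short oligonucleotides, called probe sets. There were 31 probe sets for 28 of the 31 genes, out of 45037 probe sets and 18193 named genes on the array. The cohesin gene Rad21l, Rad51ap2 and the crossover gene Rnf212 had no probe set under these symbols in the platform annotation used, so that their promoters were read but not their expression. The WT group was 3 mice and the KO group (Alkbh1-/-) was 3 mice, all 12 weeks old, with a background spelled C57/BL6 in the source label and C53/BL6 in the genotype field. Each mouse gave 1 Affymetrix array of snap-frozen whole testis, with RNA integrity numbers from 9.8 to 10, and no treatment is named for either group. Alkbh1 is a dioxygenase gene of the AlkB family, and the labels do not say which of its exons the deletion removed. In whole tissue, fewer cells of a type and less RNA per cell cannot be told apart.

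Meiosis reduces the chromosome set of germ cells. In its prophase the homologous chromosomes are cut by programmed double strand breaks, are paired by repair of these breaks on the homologue, and are held together along their length by the synaptonemal complex, a zipper of lateral elements, transverse filaments and a central element built on a cohesin axis. A few of the breaks become crossovers, which hold homologues together until they are parted. In the mouse testis these steps take place in primary spermatocytes, between the spermatogonia and the haploid spermatids. The list follows this label in most of its entries, but Tex14 encodes a protein of the bridges between germ cells and Tex101 a glycoprotein of the germ cell surface needed for male fertility, so that neither is a synapsis or recombination gene.

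Some sequence features, which the choice by name did not use, were more frequent in the promoters of these genes than in those of protein-coding genes. RefSeq start sites (GRCm38.p6) were found for 27 of the 31 genes, all but Tex11, Spo11, Tex15 and Meiob, and the 250 bases before each start were searched on both strands. E2F6, and the MGA and MAX proteins that share a Polycomb complex with it, are known to hold germ cell genes silent in other mouse cells, and they bind E2F sites and E-boxes. The E2F-type letters TTCCCGC stood before 11 of the 27 genes (40.7%), against 5.69% of 17492 protein-coding genes. The E-box CACGTG stood before 6 of the 27 (22.2%, against 7.61%). Both were present before 4 genes (14.8%, against 0.589%), namely Sycp3, Hormad1, Tex12 and Syce2. The shorter form TCCCGC, which is part of TTCCCGC, was found before 14 genes (51.9%, against 24.2%), the MYB-type letters TAACNG before 11 (40.7%, against 20.2%) and the cAMP response element TGACGTCA before 0 (against 2.2%). Counting for each gene its window with the most CpG dinucleotides, the median over genes was 14, against 11 for protein-coding genes. A match is a run of letters and not a bound site, genes with several starts were counted once if any window matched, and the motifs were picked from knowledge of germ cell genes, so that these shares are descriptions.

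Windows of Sycp3 (chr10:88459337-88459586, plus strand), Hormad1 (chr3:95559427-95559676, plus strand) and Tex12 (chr9:50561269-50561518, minus strand) are printed 5′ to 3′ up to the base before the start, because they hold both kinds of letters, with the E-box and the E2F-type letters (or GCGGGAA, their other strand) in capitals.
Sycp3: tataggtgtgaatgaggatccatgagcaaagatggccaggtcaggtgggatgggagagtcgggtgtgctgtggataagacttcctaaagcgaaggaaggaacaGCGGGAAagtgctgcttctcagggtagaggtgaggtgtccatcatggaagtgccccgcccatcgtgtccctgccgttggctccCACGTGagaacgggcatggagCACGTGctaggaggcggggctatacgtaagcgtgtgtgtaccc
Hormad1: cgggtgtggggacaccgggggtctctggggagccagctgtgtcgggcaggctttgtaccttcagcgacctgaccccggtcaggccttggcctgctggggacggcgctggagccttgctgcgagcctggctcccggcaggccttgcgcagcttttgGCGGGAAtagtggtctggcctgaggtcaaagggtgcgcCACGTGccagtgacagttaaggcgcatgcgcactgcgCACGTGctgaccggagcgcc
Tex12: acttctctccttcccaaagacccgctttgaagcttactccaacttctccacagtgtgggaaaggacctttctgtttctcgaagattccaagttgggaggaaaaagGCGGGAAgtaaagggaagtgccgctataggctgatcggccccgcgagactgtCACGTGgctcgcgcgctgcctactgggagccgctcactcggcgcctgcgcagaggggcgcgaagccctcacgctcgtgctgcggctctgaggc
Sycp3 and Hormad1 carried the E-box at 2 positions each and Tex12 at 1, and each of the 3 windows carried the E2F-type letters at 1. Among the genes with a tested probe set, the 9 with TTCCCGC had differences between KO and WT from −0.05 to 0.17 log2 and the 14 without it from −0.15 to 0.16. Both ranges held 0, and the range without the letters reached lower.

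The arrays were alike, with Pearson correlations across probe sets from 0.989 to 0.996, where probe sets are not independent replicates. Alkbh1 checked the labels, at 8.43, 8.65 and 8.72 log2 in WT replicates 1 to 3 and 5.76, 5.30 and 5.20 in KO replicates 1 to 3 (probe set 1434660_at, a difference of −3.18 ± 0.15, limma adjusted p = 0.000582). Its other probe set, 1438681_at, read 6.97, 6.82 and 7.16 in WT and 6.03, 5.78 and 6.10 in KO, a difference of −1.02 ± 0.12 that did not pass (limma adjusted p = 0.0697). Both probe sets were lower on all KO arrays than on all WT arrays, and whether their probes lie within the deletion is not known. WT replicates 1 and 2 stood farthest apart (r = 0.989). Probe sets were tested if their mean over all arrays lay in the upper 60%, which kept 27022. This level filter passed 30 of the 31 probe sets on the list, for 27 genes, and left out that of Mei4. Values are log2 expression values, in which a difference of 1 is a 2-fold change, and groups are given as mean ± SD with n = 3. Where a gene had 2 tested probe sets, the one with the higher mean stands for it unless both are given. The levels of different probe sets are not comparable.

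The meiotic genes were at nearly the same level in KO and WT testes. None of the 30 tested probe sets passed the test (limma, Benjamini-Hochberg adjusted p from 0.939 to 1 over all 27022), where 0.0407% of all tested probe sets passed. At an unadjusted p under 0.05 there were 2 (6.67%, against 5.11% of all probe sets). Groups did not overlap in 4 (13.3%, against 11% of all), with KO above WT in 3 (7.12% of all) and below it in 1 (3.84% of all). These shares lay near those of the array as a whole. The differences of the 27 genes ran from −0.16 to 0.21 log2, and 16 were positive and 11 negative. Their median was 0.015, against 0.012 for all 13897 genes tested, and it became −0.012 with quantile normalization, −0.010 without WT replicate 1 and −0.008 without WT replicates 1 and 2.

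The precision of the arrays bounds what could have been missed. The 95% confidence interval of the difference came from the limma fit and was not adjusted for the number of genes. It lay within 0.5 log2 of 0 for 25 of the 27 genes (92.6%, against 95% of all genes). It lay within 1 log2 for all 27, and for 13828 of all 13897 genes tested. It lay within 0.25 log2 for 15 (55.6%, against 52.2% of all genes). The lowest bound was that of Tex11, at 0.772 of the WT level, and the highest that of Spo11, at 1.58 of it. For 17 of the 27 genes (63%, against 68.9% of all) the difference was smaller than the SD within the groups.

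**Figure D1:**
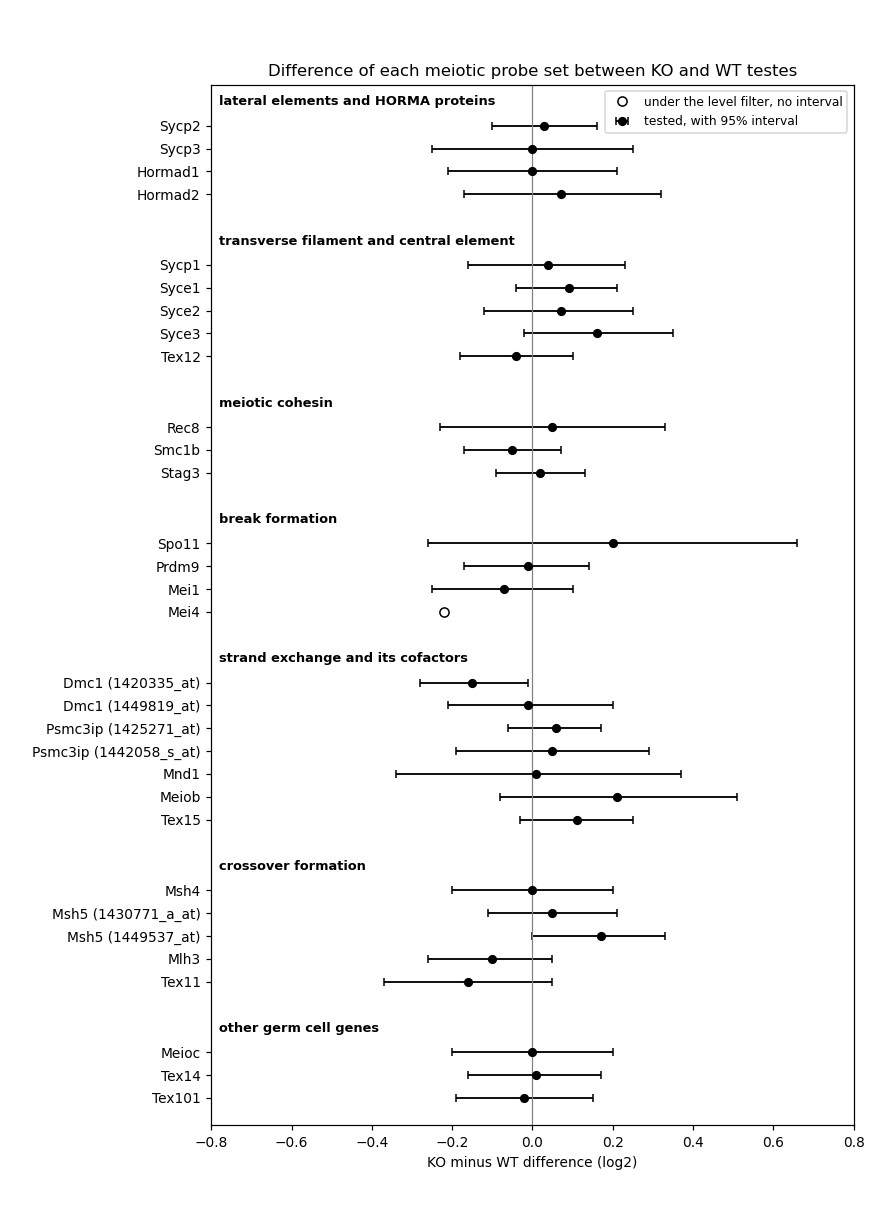
KO minus WT difference in log2 (horizontal axis) for each probe set, ordered by role, with filled points for the 30 tested probe sets and bars for their 95% confidence intervals. The interval of probe set 1420335_at of Dmc1 ends just below 0 and that of 1449537_at of Msh5 starts at about 0, and the other intervals hold 0, while Mei4 (open point, −0.22) has none.

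**Figure D2:**
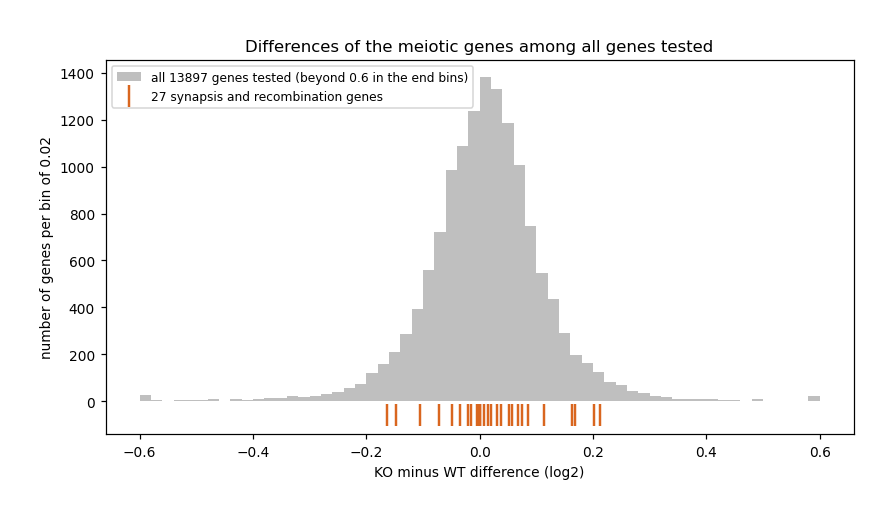
Number of genes per bin of 0.02 (vertical axis) by KO minus WT difference in log2 (horizontal axis) for all 13897 genes tested in grey. A tick under the axis marks each of the 27 tested genes on the list, labelled synapsis and recombination genes, Tex14 and Tex101 included. The ticks lie between −0.16 and 0.21, inside the body of the grey histogram.

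The lateral elements form the axis of each homologue. Sycp2, which encodes a large protein of the axis, read 11.98, 12.08 and 12.08 in WT and 12.02, 12.06 and 12.15 in KO, a difference of 0.03 ± 0.06 (SE). Hormad2, a HORMA domain protein of axes that have not synapsed, read 8.49, 8.13 and 8.23 in WT and 8.45, 8.37 and 8.25 in KO, a difference of 0.07 ± 0.10. The groups overlapped at both genes, and within WT the gap between replicates 1 and 2 of Hormad2 (0.37) was larger than the difference between the groups. Sycp3, the partner of SYCP2, stood at 12.27 ± 0.21 in WT and 12.27 ± 0.12 in KO, and Hormad1, which is needed for breaks and for pairing, at 11.26 ± 0.17 and 11.25 ± 0.08. Their intervals reached from −0.25 to 0.25 and from −0.21 to 0.21. None of these 4 genes passed (limma adjusted p from 0.993 to 1).

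Between the axes lie the transverse filaments of SYCP1 and the central element. Sycp1 itself differed by 0.04 ± 0.09, with WT at 11.84 ± 0.13 and KO at 11.88 ± 0.12. Syce3, one of the first central element proteins to be loaded, read 11.27, 11.34 and 11.26 in WT and 11.28, 11.55 and 11.54 in KO, a difference of 0.16 ± 0.08 (limma adjusted p = 0.993). Replicates 2 and 3 of KO lay above all WT values, and KO replicate 1 lay among them. Without KO replicate 1 the difference was 0.25. Syce1, another central element gene, read 12.97, 13.13 and 13.13 in WT and 13.13, 13.16 and 13.19 in KO. All its KO values were above all WT values, but by only 0.006 at the nearest, and the difference was 0.09 ± 0.05 (limma adjusted p = 0.993). It rested on WT replicate 1, without which it was 0.03. Syce2 (0.07 ± 0.08) and Tex12 (−0.04 ± 0.06), whose proteins bind each other in the central element, overlapped between groups. The mean of the 5 genes, set against each gene's mean of all arrays, was lowest in WT replicate 1 (−0.124) and lay between −0.007 and 0.068 on the other arrays.

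Meiotic cohesin ties sister chromatids and carries the axis. Smc1b, the meiotic form of SMC1, read 11.86, 11.74 and 11.78 in WT and 11.75, 11.75 and 11.72 in KO, a difference of −0.05 ± 0.05 that was −0.02 without WT replicate 1. Rec8, the meiotic kleisin, read 9.93, 9.79 and 9.89 in WT and 10.19, 9.88 and 9.69 in KO, a difference of 0.05 ± 0.12. The highest and the lowest Rec8 value were both KO arrays, 0.50 log2 apart. Stag3, a meiotic stromal antigen subunit, was the most precisely bounded gene of the list, with a difference of 0.02 and an interval from −0.09 to 0.13. The cohesin genes that dividing somatic cells also use, listed apart with their regulators, were all tested. Of these 15 genes, 0 passed and 0 had an unadjusted p under 0.05 (limma), where 6 and 766 of all 13897 genes tested did. Their median difference was −0.011. The smallest p-values among them belonged to Esco2, a cohesin acetyltransferase gene (−0.17 ± 0.07, limma adjusted p = 0.975), Sgo1, which encodes the cohesin protector shugoshin (−0.20 ± 0.10, limma adjusted p = 0.993), and Smc3 (0.11 ± 0.06, limma adjusted p = 0.993), whose product is a partner of both SMC1 forms.

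Break formation starts recombination. Spo11, which encodes the enzyme that cuts the DNA, read 10.39, 11.11 and 11.13 in WT and 10.89, 11.10 and 11.26 in KO. Its difference of 0.20 ± 0.20 (limma adjusted p = 0.993) rested on the low value of WT replicate 1, and without that array it was −0.04. Without WT replicates 1 and 2 it was −0.05. The within-group SD of 0.33 was above that of 98.7% of genes. Mei1, which is required for break formation, read 7.54, 7.36 and 7.54 in WT and 7.37, 7.45 and 7.40 in KO, a difference of −0.07 ± 0.07. It was −0.13 without WT replicate 2 and −0.04 without WT replicate 1 or 3. Prdm9, the histone methyltransferase gene that places breaks at hotspots, stood at 6.28 ± 0.01 and 6.26 ± 0.04, close above the lowest mean level that the filter admitted (6.02). Mei4, whose product sits on the axis before breaks are made, had a mean level of 5.04, under the filter. It read 4.97, 5.29 and 5.19 in WT and 5.01, 4.77 and 5.02 in KO, with overlapping groups and a difference of −0.22 that was not tested in the filtered table. With no filter its limma adjusted p was 0.998.

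In strand exchange, Dmc1, the meiosis-specific recombinase, had the smallest p of the list. Its probe set 1420335_at read 8.70, 8.66 and 8.67 in WT and 8.48, 8.55 and 8.56 in KO. The KO arrays were all lower than the WT arrays, by at least 0.098, with a difference of −0.15 ± 0.06 and an interval from −0.28 to −0.01, and the adjusted p was 0.939 (limma). The other Dmc1 probe set, 1449819_at, did not share this pattern. It read 8.56, 8.31 and 8.43 in WT and 8.33, 8.40 and 8.55 in KO, a difference of −0.01 ± 0.09 with overlapping groups, and the mean of both probe sets differed by −0.08. Tex15, which is needed to load recombinases and also acts in transposon silencing, read 11.16, 11.16 and 11.08 in WT and 11.33, 11.24 and 11.17 in KO. Its groups were apart by 0.005 and differed by 0.11 ± 0.06 (limma adjusted p = 0.993), or by 0.07 without KO replicate 1.

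The cofactors of strand exchange overlapped between groups. Psmc3ip (HOP2) and Mnd1 encode the subunits of a complex that helps DMC1. Psmc3ip differed by 0.06 and 0.05 at its 2 probe sets, the former becoming 0.03 without WT replicate 1 and 0.02 with quantile normalization, and Mnd1 by 0.01 with an interval from −0.34 to 0.37. Meiob, a single-strand binding protein of meiosis, had the largest difference of the 27 tested genes, at 0.21 ± 0.13 (limma adjusted p = 0.993). It read 8.95, 9.24 and 8.95 in WT and 9.08, 9.51 and 9.20 in KO, so that WT replicate 2 lay above the KO values of replicates 1 and 3. The difference was 0.09 without KO replicate 2, 0.31 without WT replicate 2 and 0.33 with array weights.

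Crossover genes act on a subset of the exchanged strands. Msh5, which encodes a subunit of the MutS complex that stabilises them, read 7.94, 8.02 and 7.86 in WT and 8.04, 8.13 and 8.16 in KO at probe set 1449537_at. The groups were apart by 0.025 and differed by 0.17 ± 0.07, with an adjusted p of 0.965 (limma). At the other Msh5 probe set, 1430771_a_at, the values were 7.13, 7.20 and 7.16 in WT and 7.21, 7.30 and 7.15 in KO, a difference of 0.05 ± 0.07 with overlap. Msh4, which encodes the partner of MSH5, stood at 9.16 ± 0.08 in WT and 9.16 ± 0.15 in KO. Mlh3, an endonuclease subunit of crossover resolution, differed by −0.10 ± 0.06 (limma adjusted p = 0.993). It lies on chromosome 12 like the deleted gene, with 31 protein-coding genes between them. The 486 chromosome 12 genes tested, Alkbh1 among them, had a median difference of 0.013. A median over the whole chromosome does not describe the genes near Alkbh1, and the part of this position in the value of Mlh3 was not tested. Tex11, the X-linked crossover gene whose loss makes male mice infertile, read 7.67, 7.76 and 7.60 in WT and 7.43, 7.43 and 7.68 in KO. KO replicates 1 and 2 lay below all WT values and KO replicate 3 among them, and the difference was −0.16 ± 0.09 (limma adjusted p = 0.993). It was −0.25 without KO replicate 3 and −0.08 without WT replicates 1 and 2. The 427 X-linked genes tested had a median difference of −0.042, and the part of the X chromosome in the value of Tex11 was not tested.

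The remaining 3 genes on the list differed by at most 0.02 log2. Tex101 read 11.89, 11.78 and 11.69 in WT and 11.86, 11.76 and 11.68 in KO, a difference of −0.02 ± 0.07. Tex14 read 10.28, 10.46 and 10.51 in WT and 10.47, 10.39 and 10.42 in KO, a difference of 0.01 ± 0.07. Meioc, which holds spermatocytes in prophase together with YTHDC2, stood at 10.84 ± 0.10 in WT and 10.84 ± 0.15 in KO. All 3 overlapped between groups.

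**Figure D3:**
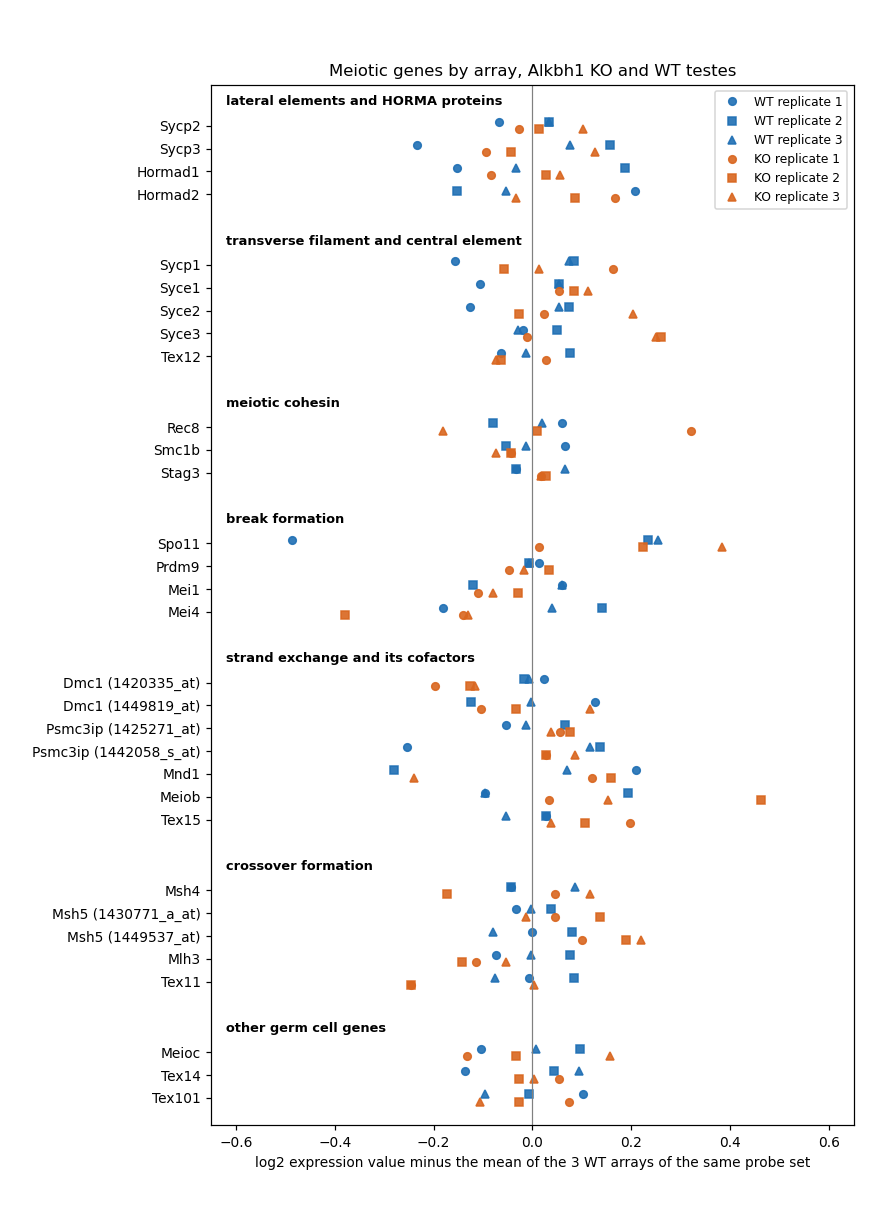
Log2 expression value of each probe set on each array minus the mean of its 3 WT arrays (horizontal axis), with WT in blue, KO in orange and the replicate number by symbol, ordered by role. Blue and orange points are mixed for most genes, and the points farthest from 0 are those of single arrays, such as WT replicate 1 at Spo11 and KO replicate 2 at Meiob.

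In most genes the arrays of 1 group lay farther apart than the group means. Over all 6 arrays of both groups, Spo11 ranged over 0.87 log2 (1.83-fold), Meiob over 0.56, Rec8 over 0.50 and Mnd1 over 0.48. WT replicate 1 held the lowest value of 9 of the 27 genes, and it held the lowest value of 32.5% of all genes. Against WT replicate 2 it was lower in 17 of the 27 (63%, against 55.6% of all genes), by up to 0.73 at Spo11, 0.40 at Sycp3 and 0.34 at Hormad1. The opposite order held at Mnd1 (0.48 higher in WT replicate 1) and Hormad2 (0.37 higher). As a mean over the 27 genes, the level on an array deviated by −0.057 in WT replicate 1 and by 0.000 to 0.024 on the other 5 arrays. The mean over all 13897 genes tested deviated by −0.031 in WT replicate 1.

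Markers of testis cell types, the spermatocytes among them, moved between these arrays too. The mean log2 of the pachytene spermatocyte markers (17 of 17 listed genes tested) was 11.44, 11.60 and 11.61 in WT replicates 1 to 3 and from 11.56 to 11.60 in KO. That of the spermatogonial markers (12 of 15 tested) was 8.63, 8.47 and 8.48 in WT and from 8.49 to 8.55 in KO. WT replicate 1 was thus the lowest array for the first list and the highest for the second. Round spermatid markers (18 of 19 tested) averaged from 12.00 to 12.10 in WT and from 12.10 to 12.15 in KO, and elongating spermatid markers (16 of 16) from 13.75 to 13.83 and at 13.84 on each KO array. Sertoli cell markers (17 of 20) lay at 10.33 to 10.34 in WT and 10.26 to 10.29 in KO. The difference was positive for 17 of 18 round spermatid, 16 of 16 elongating spermatid and 3 of 17 Sertoli cell markers. It was positive for 13 of 17 pachytene and 7 of 12 spermatogonial markers, against 55.9% of all genes. These counts were not tested. Markers of adhering fat (2 of 6 tested) ranged from 7.04 to 8.45 in WT and from 7.66 to 9.25 in KO, and those of epididymis (3 of 10) from 6.65 to 7.20 and from 6.33 to 7.29. Those of Leydig cells (6 of 10) ranged from 10.15 to 10.56 in WT and from 10.22 to 10.46 in KO, of peritubular myoid cells (8 of 8) from 9.21 to 9.32 and from 9.19 to 9.31, of macrophages (10 of 11) from 8.41 to 8.59 and from 8.46 to 8.63, and of endothelium (4 of 8) from 6.97 to 7.02 and from 7.00 to 7.04. No gene of these marker lists passed the test. The part of these cell types in the values of the meiotic genes was not tested.

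**Figure D4:**
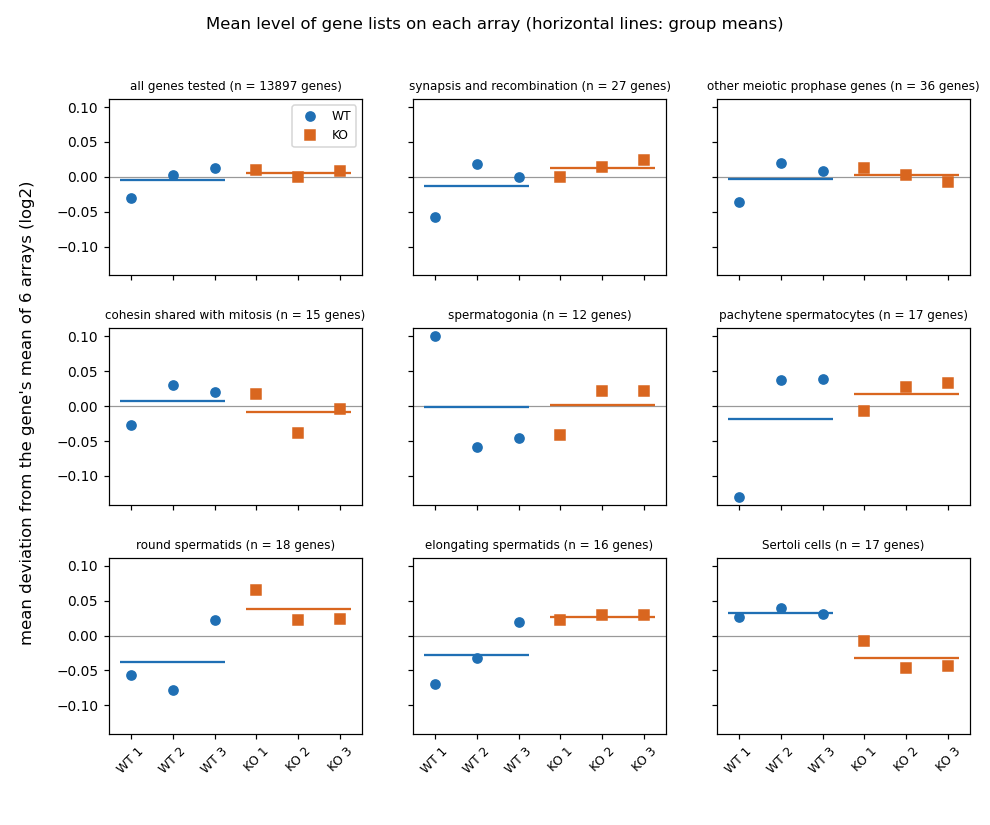
Mean deviation of the genes of a list from each gene's mean of 6 arrays in log2 (vertical axis) on each array (horizontal axis). Panels show all genes tested, the 27 tested meiotic genes (labelled synapsis and recombination, Tex14 and Tex101 included) and 7 other lists. WT are blue circles, KO are orange squares, and horizontal lines mark group means. The 27 meiotic genes lie at −0.057 in WT replicate 1 and between 0.000 and 0.024 elsewhere. In WT replicate 1 all genes tested lie at −0.031, the pachytene markers at −0.130 and the spermatogonial markers at 0.100.

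Other genes of meiotic prophase were read beside the list. This list of 49 genes covers break partners, telomere attachment, recombinase mediators, checkpoint kinases and crossover factors. Of them 36 were tested, 0 passed and 0 had an unadjusted p under 0.05 (limma), with differences from −0.17 to 0.27 and a median of 0.017, which changed sign with quantile normalization (−0.008). Groups did not overlap in 4 of the 36, against 1694 of all 13897 genes tested. The smallest p-values belonged to Zfp541, a zinc finger gene of pachytene spermatocytes, Rpa3, a subunit of the single-strand binding protein RPA, and Terb1, which ties telomeres to the nuclear envelope. Zfp541 read 11.18, 11.21 and 11.21 in WT and 11.29, 11.38 and 11.28 in KO, a difference of 0.11 ± 0.05 without overlap (limma adjusted p = 0.982). Rpa3 differed by 0.27 ± 0.15 and Terb1 by −0.12 ± 0.07 (limma adjusted p = 0.993 for each).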

How the data were processed

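Total RNA of 3 WT and 3 KO testes was hybridised to 1 Affymetrix array per mouse, per the labels. The deposited table holds 45101 probe sets, and its range (2.61 to 15) and array medians (6.62 to 6.65) are those of log2 values that the authors had already normalized. Their processing notes name GCOS 1.4 (per the submitters' processing notes), and how background, probe summary and normalization were done is not stated there. A normalization that equalises arrays hides a shift of the whole transcriptome, and background compresses differences at low levels. The number of arrays limits the precision.

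Without the 64 controls, the upper 60% of probe sets by mean over all arrays were tested with limma 3.58.1 (R 4.3.3; lmFit, eBayes with an intensity trend, two-sided, Benjamini-Hochberg adjustment, threshold 0.05). Symbols came from the platform annotation, brought up to date by Entrez ID with RefSeq (GRCm38.p6). A single gene was named for 34945 probe sets, several for 932, which were not used by name, and no gene for 9160. On simulated arrays (10 runs, 27022 probe sets, 200 changed) 50% of changes of 0.5 log2, 90.9% of 1 and 98.4% of 2 were recovered, and 4.77% of calls were false. The smallest size tried, 0.5 log2, was above the largest difference of the 27 tested genes (0.21), and recovery at smaller sizes was not tested. On the measured arrays 11 probe sets passed, and 1438681_at of Alkbh1, at −1.02, did not (limma adjusted p = 0.0697). How far the recovered shares hold for the measured arrays was not tested.

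In each role group, values per array are given for the 2 genes with the smallest p and for probe sets without overlap or at an unadjusted p under 0.05. Meiob, Mei4 and the other probe sets of Dmc1 and Msh5 were added after their values were seen. The genes, lists and tests were chosen with earlier results of these data known. Alternatives covered normalization, filter, variance moderation, array weights, a replicate block, probe set choice and left-out arrays.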

Additional observations from a re-analysis of the deposited data

How the results depend on the processing

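No probe set of the meiotic genes passed under any of the 14 alternatives to which this count applies, with limma adjusted p from 0.245 upward for single genes, the lowest being that of Msh5 with array weights. The count over all probe sets was 11, and it was 7 in the upper 40% by level, where fewer probe sets were tested, 46 with array weights, 2 without WT replicates 1 and 2 together, and from 2 to 12 when single arrays were left out. The cause of the higher count with array weights was not tested. Leaving out arrays leaves fewer samples, and without WT replicates 1 and 2 the lone WT array is assumed to vary like KO. The replicate block gave 9 probe sets, 0 of them meiotic. The labels do not say whether the numbers pair the samples, and the main fit did not pair them. Correlations of deviations between arrays of the same number were 0.223, −0.024 and 0.0964. WT replicates 1 and 3 correlated best with the KO array of their own number, and WT replicate 2 with KO replicate 3 (0.252). With deviations taken from means of 3 arrays, these values cannot decide whether samples were paired.

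The median over the meiotic genes ran from −0.010 to 0.048 when single arrays were left out, the highest without WT replicate 3. That over the other prophase genes (0.017) was −0.008 with quantile normalization and with array weights, −0.012 without WT replicates 1 and 2, and −0.034 to 0.035 when single arrays were left out, the lowest without WT replicate 1.

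Of 404 gene values under the alternatives 47 changed sign, in 16 genes, to at most 0.12 in size, and the cause was not tested. With quantile normalization the differences were −0.02 for Meioc and Stag3 and −0.01 for Tex14 and Sycp2, and with median centring Meioc was at 0.00. With array weights they were −0.07 for Tex14, −0.05 for Sycp1, −0.02 for Meioc and Stag3, 0.04 for Tex101, 0.01 for Hormad1 and 0.00 for Prdm9. Without WT replicates 1 and 2 they were −0.09 for Tex14, −0.05 for Stag3, Spo11 and Mnd1, −0.04 for Sycp1, −0.01 for Meioc, 0.03 for Hormad1 and 0.08 for Tex101. Leaving out single arrays gave −0.01 to 0.06 for Sycp2, −0.12 to 0.08 for Sycp3, −0.08 to 0.09 for Hormad1, 0.00 to 0.18 for Hormad2, −0.04 to 0.09 for Sycp1, 0.00 to 0.11 for Syce2, −0.07 to 0.00 for Tex12, −0.08 to 0.17 for Rec8, −0.04 to 0.33 for Spo11, −0.04 to 0.00 for Prdm9, −0.12 to 0.14 for Mnd1, −0.06 to 0.08 for Msh4, −0.08 to 0.07 for Meioc, −0.06 to 0.06 for Tex14 and −0.07 to 0.03 for Tex101. The table gives no background per probe set, so how far values near the filter, such as those of Prdm9 and Mnd1, stand above it is unknown.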
